A study of Bos taurus with 9 samples.

Results

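The genes described here encode proteins of the mitochondrial ribosome and carry a symbol that starts with MRPL or MRPS followed by a digit. They were found through the array's annotation, which named 67 such genes with 84 probe sets, out of 9155 named genes and 24016 tested probe sets. Where a gene had several probe sets, the 1 with the highest mean over the 9 arrays stood for it. Of the 67 genes, 43 carry an MRPL and 24 an MRPS symbol, and all 67 gene identifiers matched RefSeq's gene list for ARS-UCD2.0, with 0 symbols changed.

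The study put co-cultures of bovine endometrial stromal and epithelial cells on an Affymetrix 3′ expression array, with 1 array per sample and 3 samples per group. The first group received the 1-oleoyl form of lysophosphatidic acid (LPA, 1e-06 M) plus interferon tau (IFNt, 1000 antiviral units, volume not stated), the second received the same dose of LPA alone, and the control group received phosphate-buffered saline (PBS). LPA is a lipid messenger with receptors of the G protein-coupled class. Interferon tau, a type I interferon, is secreted by the ruminant embryo before it attaches. Cells of all groups came from Holstein/Polish Black and White cows at days 2 to 5 of the oestrous cycle, were seeded at 3 stromal to 1 epithelial cell, and were exposed for 6 h in medium with albumin in place of serum. Each sample was RNA pooled from 3 cows, and because the labels give 9 cows for 9 such pools, cows recur between pools and the pools are not fully independent. No group with interferon tau alone was analysed here, so the second agent can be judged only in cells that also had LPA.

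Mitochondria keep a small genome whose protein-coding genes specify core subunits of the respiratory chain and of ATP synthase, and the mitochondrial ribosome translates them. All of its proteins are encoded in the nucleus, made in the cytosol and imported, and they assemble on mitochondrial rRNA into a large subunit (MRPL) and a small subunit (MRPS). Part of the set descends from bacterial ribosomal proteins and part was added during the evolution of the organelle. The symbols do not follow the subunits throughout, since MRPS18A and MRPS30 are known to sit in the large subunit. MRPS36 is now known from human and yeast work as a component of the 2-oxoglutarate dehydrogenase complex, and it was kept because the symbol rule takes it. With these assignments 45 members counted to the large and 22 to the small subunit, and 40 have a counterpart in bacterial ribosomes while 27 have none.

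The values were deposited log2 expression values with array medians of 4.30 to 4.38. Pairs of arrays correlated with r of 0.9909 to 0.999 over all tested probe sets, and 0 of 36 pairs held identical values. The 6 interferon response genes chosen to check the labels (ISG15, MX1, MX2, IFI6, RSAD2 and USP18) averaged 12.63 to 12.76 on the LPA+IFNt arrays, 6.67 to 6.84 on the LPA arrays and 6.35 to 6.38 on the Control arrays. All 11 epithelial and 10 stromal markers lay above the highest of the 3 bacterial trp control probe sets, which serve here as a floor and reached 2.80. Among 8 leukocyte markers 5 did so, CD3E, CD79A and ITGB2 did not, and 0 of 6 endothelial markers did.

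All 67 members lay above that floor, with means over the 9 arrays between 6.63 and 11.94, so every member could be compared between groups. A level on this array also depends on the probes, so levels are compared only within a probe set. Among the brightest members, MRPL9 measured 12.03, 11.84 and 11.82 on the LPA+IFNt arrays, 12.01, 11.94 and 11.73 on the LPA arrays and 12.11, 12.02 and 11.94 on the Control arrays. MRPL51 stood at 11.93, 11.86 and 11.83 with LPA+IFNt, 11.95, 11.98 and 11.83 with LPA and between 11.98 and 12.02 in Control. The groups overlapped in MRPL9, and in MRPL51 the LPA+IFNt arrays lay just below the Control arrays (-0.13 log2, standard error, SE, 0.04, adjusted p 0.194). The other bright members were MRPL20 (11.81 ± 0.124 with LPA+IFNt, 11.85 ± 0.147 with LPA and 11.95 ± 0.041 in Control, mean ± SD, n = 3 each), MRPL27 (11.58 to 11.77 with LPA+IFNt, 11.60 to 11.84 with LPA and 11.67 to 11.92 in Control) and MRPL53 (11.68 to 11.69 with LPA+IFNt, 11.59 to 11.71 with LPA and 11.70 to 11.75 in Control). The dimmest members were MRPL38, at 6.54 to 6.63 with LPA+IFNt, 6.54 to 6.63 with LPA and 6.66 to 6.73 in Control, and MRPL28, at 6.46 to 6.84 with LPA+IFNt, 6.49 to 6.80 with LPA and 6.62 to 7.04 in Control. MRPL38 has no bacterial counterpart and sits at the central protuberance of the large subunit, and its Control arrays were above the other 6. MRPL14, at the face between the subunits, measured 7.27, 7.24 and 7.19 with LPA+IFNt, 7.34, 7.39 and 7.27 with LPA and 6.95, 7.47 and 7.27 in Control. MRPL57 measured 8.25, 8.29 and 8.29 with LPA+IFNt, 8.42, 8.30 and 8.73 with LPA and 8.12, 8.30 and 8.54 in Control. In MRPL14 the Control arrays ran wider than the other groups, and in MRPL57 the LPA and Control arrays both spread widely.

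The first comparison asked whether 6 h of LPA altered these genes. No member passed the test: limma called 0 of 67 at an adjusted p under 0.05, against 0.0708% of all probe sets (0.05% higher, 0.0208% lower), and the lowest adjusted p among them was 0.257 (MRPL36). With the replicate number as a block it was again 0, against 0.0458% (0.0333% higher, 0.0125% lower). With array weights it was 2 (MRPL36 and MRPS24), against 1.87% of all probe sets. The members nevertheless lay mostly on the low side of Control, with 57 of 67 log2 fold changes below 0, against 47.6% of all probe sets and 57.2% of the 4478 named genes in the same signal range. The median log2 fold change of the members was -0.13, or 8.43% lower on the linear scale, beside 0.002 over all probe sets and -0.02 over the named genes in the signal range. At an unadjusted p under 0.05, 11 members were lower and 1 was higher, against 3.86% and 4.43% of all probe sets and 8.24% and 6.57% of the named genes in the signal range. In 14 members the 3 LPA arrays all lay below the 3 Control arrays, and in 1 they all lay above, against 4.91% and 5.13% of all probe sets and 9.65% and 7.21% of the named genes in the signal range.

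**Figure D1:**
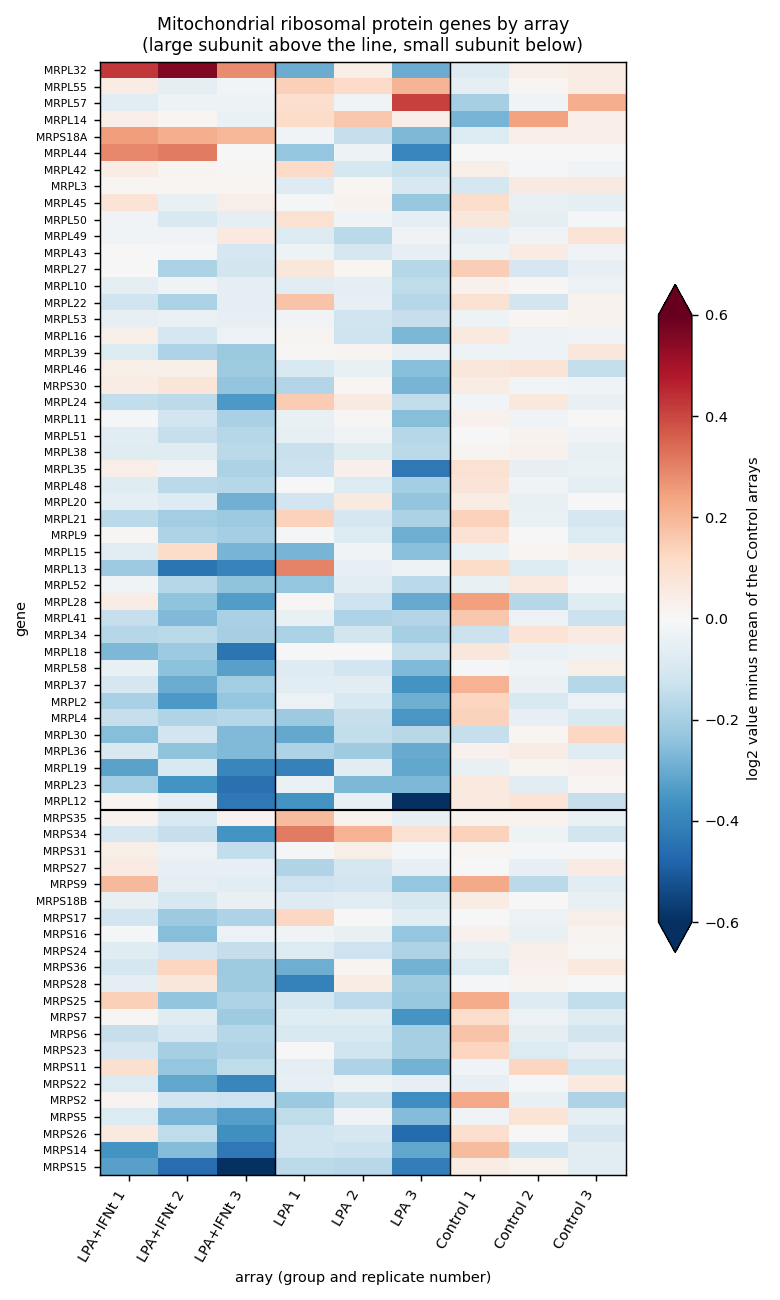
Heat map of the 67 genes (rows, large subunit above the black line) on the 9 arrays (columns, LPA+IFNt, LPA and Control, replicates 1 to 3), coloured by the log2 value minus the mean of that gene's Control arrays; the colour scale ends at 0.6 in either direction and larger deviations take the end colour. Most cells of the 6 treated arrays are pale blue, replicate 3 of each treated group is the darkest, and MRPL32, MRPS18A and MRPL44 are red under LPA+IFNt.

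The median of the members on an array had an SD of 0.063 within groups. The fold changes themselves were small in size, with a median of -0.13. They ran from -0.40 (MRPL12) to 0.20 (MRPS34), 65 of the 67 were within 0.25 log2 units of 0, and the median SE of a member was 0.08. The 95% intervals of the members together spanned -0.85 to 0.47, so a change larger than those bounds is outside every member's own interval. MRPL12, the counterpart of the bacterial L7/L12 stalk protein and known in human cells to bind the mitochondrial RNA polymerase, measured 9.25, 9.56 and 8.81 on the LPA arrays and 9.66, 9.69 and 9.47 on the Control arrays. Its low mean under LPA came mainly from replicates 1 and 3, the groups overlapped, and the log2 difference of -0.40 (SE 0.20) had an adjusted p of 0.676 in limma. MRPL19, a large-subunit protein with a bacterial counterpart, stood at 10.51, 10.85 and 10.60 with LPA and at 10.87, 10.93 and 10.94 in Control. Its LPA arrays were all below the Control arrays, by -0.26 (SE 0.10, adjusted p 0.551).

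MRPL36, the counterpart of bacterial L36 and the member nearest to a call, measured 9.11, 9.08 and 8.99 with LPA and 9.32, 9.34 and 9.22 in Control. These groups did not overlap, and the difference of -0.23 had an SE of 0.06. MRPL4, which lines the exit tunnel of the large subunit, stood at 9.13, 9.21 and 9.00 with LPA and 9.49, 9.30 and 9.26 in Control, also without overlap (-0.24, SE 0.07, adjusted p 0.413). MRPS15 and MRPS2, small-subunit proteins with bacterial counterparts, differed by -0.25 (SE 0.11) and -0.24 (SE 0.11). MRPS2 measured 8.83, 8.70 and 8.69 with LPA+IFNt, 8.59, 8.68 and 8.44 with LPA and 9.04, 8.77 and 8.63 in Control. Its LPA and Control arrays overlapped, and without Control replicate 1 the difference was -0.12. The members farthest above Control were MRPS34 (0.20, SE 0.09), MRPL57 (0.16, SE 0.13), MRPL55 (0.15, SE 0.04), MRPL14 (0.11, SE 0.12) and MRPL13 (0.07, SE 0.11). Of these only MRPL55, the counterpart of bacterial L31, had its LPA arrays apart from Control, at 11.09, 11.06 and 11.15 against 10.89, 10.96 and 10.99 (adjusted p 0.311). The difference for MRPL14 was -0.11 with array weights and -0.03 without Control replicate 1, and that for MRPL13 was -0.04 without LPA replicate 1. For MRPL57 it was 0.04 without LPA replicate 3. A second probe set of MRPL57, with a mean of 8.27, gave -0.11 (SE 0.07), with its LPA arrays all below the Control arrays.

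The shift of the family was uneven over the arrays. The median deviation of the 67 genes from their Control means was -0.07, -0.06 and -0.20 on LPA arrays 1, 2 and 3, and 0.03, -0.02 and -0.03 on Control arrays 1, 2 and 3. All 3 LPA arrays lay below all 3 Control arrays, and LPA replicate 3 lay lowest, with 58 members below each Control array there against 30 and 29 on LPA arrays 1 and 2. Without LPA replicate 3 the median fold change was -0.07 with 50 members below 0. Within replicate numbers 1, 2 and 3 the median difference LPA minus Control was -0.10, -0.04 and -0.17, with 50, 46 and 61 of 67 members below 0.

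With LPA and interferon tau together, 2 members fell against Control and 0 rose, MRPL18 and MRPS15, against 2.86% of all probe sets called lower and 2.48% called higher (5.34% in all). The members again lay mostly below Control: 58 of 67 fold changes were below 0, against 40.7% of all probe sets and 66.4% of the named genes in the same signal range. Their median log2 fold change was -0.11, or 7.23% lower, beside 0.02 over all probe sets and -0.07 over the named genes in the signal range. At an unadjusted p under 0.05, 20 members were lower and 2 were higher, against 10.6% and 6.07% of all probe sets. In 25 members the LPA+IFNt arrays all lay below the Control arrays and in 2 all above, against 12.8% and 10.2% of all probe sets. Among the 4478 named genes in the same signal range lower values were commoner than over all probe sets: 20.8% were lower and 469 genes higher at that p, 25.4% lay all below and 12.2% all above, and 221 were called lower and 219 higher. This comparison uses the same Control arrays as the one with LPA alone, so the shifts are not separate evidence.

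MRPS15 (gene ID 508928) is the counterpart of bacterial S15, which binds rRNA early in the assembly of the small subunit. It measured 10.24, 10.11 and 9.85 on the LPA+IFNt arrays, 10.41, 10.40 and 10.15 on the LPA arrays and 10.61, 10.59 and 10.50 on the Control arrays. The LPA+IFNt and Control values did not overlap, while the LPA values lay between them and overlapped those with LPA+IFNt. The level with LPA+IFNt was 0.708 times that in Control (-0.50 log2, SE 0.11, 95% interval -0.75 to -0.24, limma adjusted p 0.0426), the largest fall among the members. The call held without LPA replicate 3 (0.0319) and without LPA+IFNt replicate 1 (0.0379), and leaving out any of the other 7 arrays gave an adjusted p of 0.0576 to 0.145.

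MRPL18 (gene ID 534352) is the counterpart of bacterial L18, the binding partner of 5S rRNA. Its values were 10.72, 10.77 and 10.55 with LPA+IFNt, 10.99, 10.99 and 10.85 with LPA and 11.06, 10.95 and 10.96 in Control. The 3 LPA+IFNt arrays were below the other 6, and the LPA and Control arrays overlapped. The level with LPA+IFNt was 0.807 times that in Control (-0.31 log2, SE 0.07, adjusted p 0.0442), and against LPA the difference was -0.27 (SE 0.07, adjusted p 0.0694). The call against Control held without LPA replicate 3 (0.0411) and without LPA+IFNt replicate 2 (0.0475), and leaving out any of the other 7 arrays gave 0.0621 to 0.151.

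The labels give no pairing, but arrays with the same replicate number deviated together, so the numbers were taken as pairing the samples. With the replicate number as a block 7 members passed against Control, beside 8.68% of all probe sets (5.44% lower, 3.24% higher). The 6 lower were MRPS15 (adjusted p 0.00628), MRPL13 (0.00828), MRPL23 (0.0143), MRPL18 (0.0178), MRPL36 (0.0298) and MRPS34 (0.0300), and the higher was MRPL32 (0.0281). MRPL23, which sits beside the polypeptide exit, measured 10.76, 10.61 and 10.52 with LPA+IFNt, 10.93, 10.70 and 10.70 with LPA and 11.03, 10.90 and 10.98 in Control. Its LPA+IFNt arrays lay below the Control arrays without overlap (-0.34, SE 0.08, adjusted p 0.0670 without the block). Further probe sets of MRPL23 gave -0.21 (SE 0.08, adjusted p 0.213) and -0.17 (SE 0.08, adjusted p 0.344) without the block. MRPL13, a large-subunit protein shared with bacteria, stood at 10.09, 9.87 and 9.91 with LPA+IFNt, 10.61, 10.26 and 10.28 with LPA and 10.42, 10.23 and 10.28 in Control. Its 3 LPA+IFNt arrays were below all the others (-0.36 against Control, SE 0.11, adjusted p 0.123 without the block).

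MRPS14, a small-subunit protein with a bacterial counterpart, lay at 10.60, 10.70 and 10.53 with LPA+IFNt, 10.84, 10.83 and 10.65 with LPA and 11.15, 10.84 and 10.89 in Control. Its LPA+IFNt and Control arrays did not overlap (-0.35, SE 0.09, adjusted p 0.0871), and its probe set is of the type whose probes may match more than 1 gene. The other probe set of MRPS14, with a mean of 9.255, gave -0.15 (SE 0.10, adjusted p 0.481) with overlap. For LPA against Control that probe set gave 0.04, where the brightest gave -0.18. The other members with the highest values against Control besides MRPL32 were MRPS18A (0.22, SE 0.07), MRPL44 (0.20, SE 0.11), MRPS9 (0.03, SE 0.11) and MRPL45 (0.02, SE 0.08). In MRPL45, which anchors the ribosome near the inner membrane, the LPA+IFNt values of 10.74, 10.61 and 10.69 overlapped the Control values of 10.76, 10.61 and 10.60. MRPS9, of the head of the small subunit, was likewise mixed, with 8.19, 7.94 and 7.93 with LPA+IFNt, 7.87, 7.88 and 7.76 with LPA and 8.22, 7.83 and 7.93 in Control.

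Per array, the median deviation of the members from their Control means was -0.05, -0.12 and -0.19 on LPA+IFNt arrays 1, 2 and 3. Below each of the 3 Control arrays lay 32, 43 and 49 members on these arrays. Without LPA+IFNt replicate 3 the median fold change against Control was -0.07 with 52 members below 0. Within replicate numbers 1, 2 and 3 it was -0.05, -0.11 and -0.13, with 52, 55 and 59 members below 0. The direction of the median was negative as deposited and with each array centred on its median (-0.13, 61 below 0), but with arrays centred on 45 spike-in probe sets it was -0.009 with 37 members below 0. That centring shifts all probe sets of an array alike, putting their median at 0.117, so it cannot test the members' place below it.

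**Figure D2:**
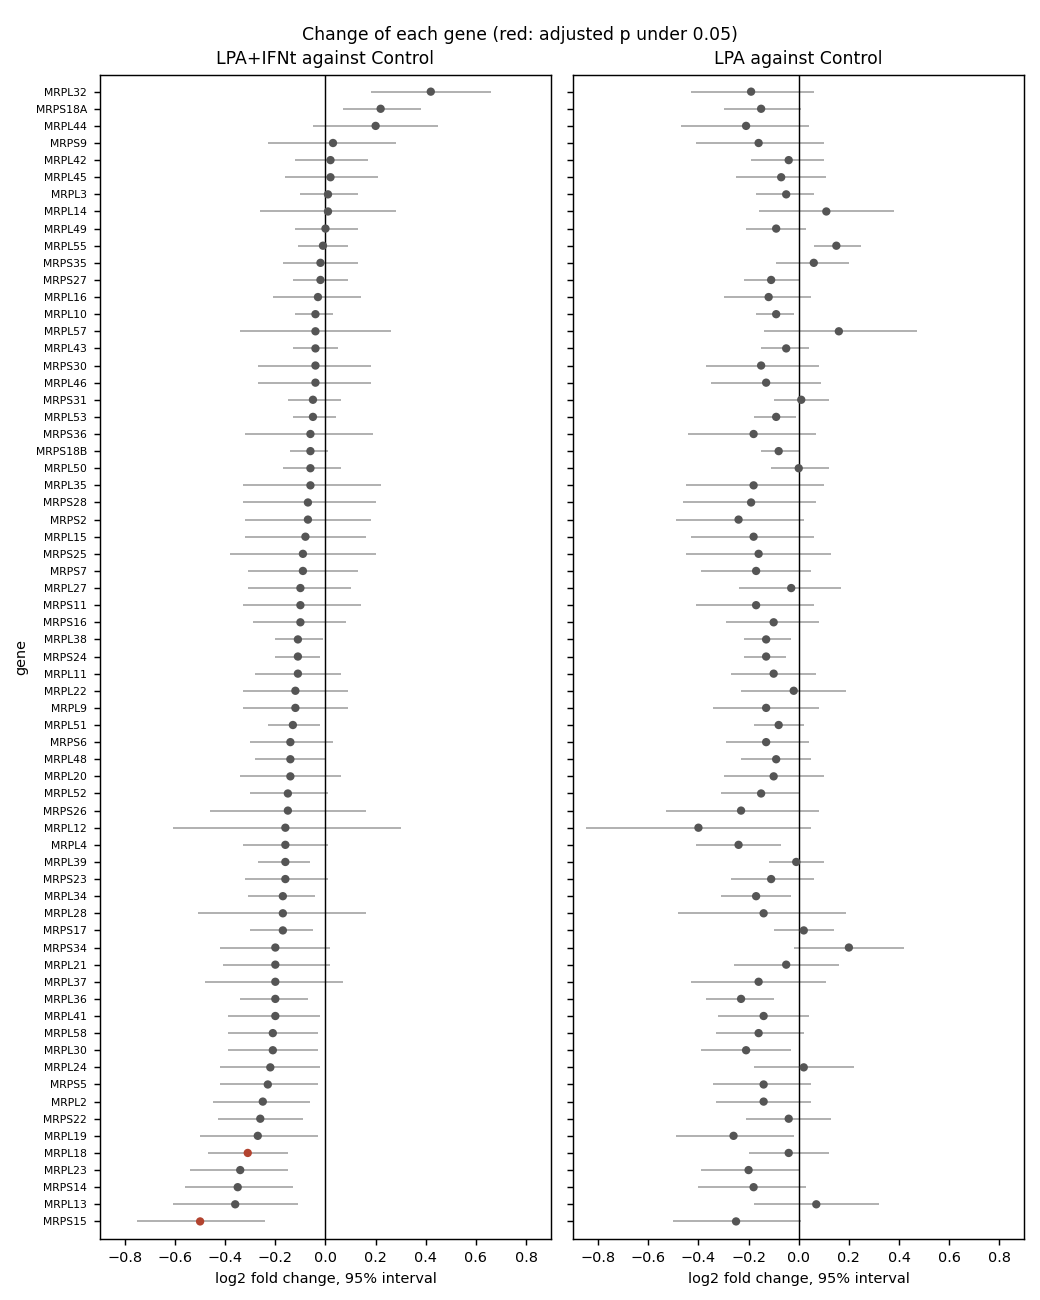
Log2 fold change (point) and 95% interval (line) of each of the 67 genes for LPA+IFNt against Control (left) and LPA against Control (right), sorted by the left panel; red points have an adjusted p under 0.05. The points lie mostly left of 0 in both panels, with MRPS15 and MRPL18 red on the left, and MRPL32, MRPS18A and MRPL44 lie right of 0 on the left and left of 0 on the right.

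The last comparison asked what interferon tau changed in cells that also had LPA. Here 3 members were called: MRPL32 and MRPS18A rose and MRPS34 fell, against 2.56% of all probe sets called higher and 3.98% called lower (6.54% in all). The family as a whole was centred near 0, with a median of -0.005. That median was 0.019 over all probe sets and -0.04 over the named genes in the same signal range. Of the 67 members 35 lay below 0, against 38.5% of all probe sets and 58.1% of the named genes in the signal range. Within 0.25 log2 units of 0 lay 60 members. With spike-in centring the median of the members was 0.116 with 13 members below 0, beside 0.140 for all probe sets. In 6 members the LPA+IFNt arrays all lay above the LPA arrays and in 9 all below, against 7.35% and 11.3% of all probe sets. At an unadjusted p under 0.05, 3 members were higher and 8 lower, against 5.98% and 11.5%. Among the 4478 named genes in the signal range 539 lay all above and 19.5% all below, 517 were higher and 20.2% lower at that p, and 242 were called higher and 301 lower.

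MRPL32 (gene ID 532842), a large-subunit protein whose precursor is trimmed by the m-AAA protease of the inner membrane before it joins the ribosome, had the largest rise. It measured 10.52, 10.65 and 10.38 on the LPA+IFNt arrays, 9.80, 10.13 and 9.80 on the LPA arrays and 10.02, 10.13 and 10.14 on the Control arrays. The 3 LPA+IFNt arrays were above the other 6, and LPA replicate 2 stood with the Control arrays. The level with LPA+IFNt was 1.52 times that with LPA (0.60 log2, SE 0.10, 95% interval 0.36 to 0.85, adjusted p 0.0139). Against Control the difference was 0.42 (SE 0.10, adjusted p 0.0689), and LPA against Control gave -0.19 (SE 0.10, adjusted p 0.750). The call against LPA was lost without LPA replicate 1 (0.0596) and without LPA+IFNt replicate 1 (0.0512), and leaving out each of the other 7 arrays gave 0.00346 to 0.0478.

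MRPS18A (gene ID 614102), 1 of 3 mammalian relatives of bacterial S18, measured 8.67, 8.64 and 8.62 with LPA+IFNt, 8.40, 8.28 and 8.15 with LPA and 8.34, 8.46 and 8.46 in Control. The LPA+IFNt arrays again stood above the other 6, and the LPA and Control arrays overlapped. The level with LPA+IFNt was 1.29 times that with LPA (0.37 log2, SE 0.07, adjusted p 0.0173), and 1.17 times that in Control (0.22, SE 0.07, adjusted p 0.125). The call against LPA was lost without LPA+IFNt replicate 1 (0.0641), 2 (0.0559) or 3 (0.0519), and held without each other array (0.0103 to 0.0362). Its relative MRPS18B differed by 0.01 (SE 0.03) between the same groups and by -0.06 (SE 0.03, adjusted p 0.371) from Control. MRPS18B measured 9.30, 9.25 and 9.30 with LPA+IFNt, 9.27, 9.28 and 9.25 with LPA and 9.39, 9.35 and 9.30 in Control.

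MRPS34 (gene ID 618357), a small-subunit protein without a bacterial counterpart, measured 9.51, 9.47 and 9.25 with LPA+IFNt, 9.92, 9.82 and 9.70 with LPA and 9.75, 9.58 and 9.50 in Control. The LPA+IFNt and LPA arrays did not overlap, and the Control arrays lay between them and overlapped both. The level with LPA+IFNt was 0.757 times that with LPA (-0.40 log2, SE 0.09, adjusted p 0.0495). This call was at the threshold: it held without Control replicate 1 (0.0476), and leaving out any of the other 8 arrays gave 0.0605 to 0.168. A second probe set of MRPS34 lay below the floor, at a mean of 1.36.

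**Figure D3:**
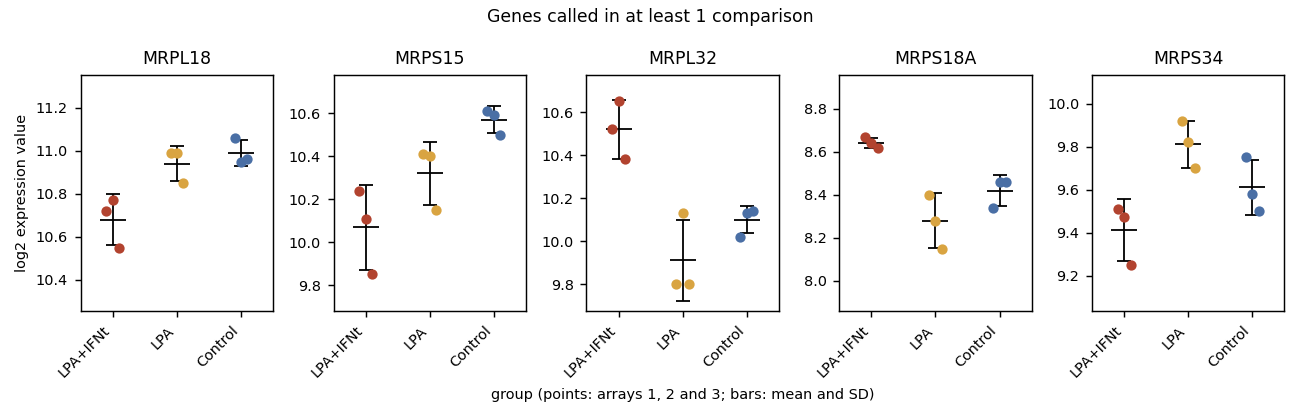
Log2 expression values of the 5 genes called in at least 1 comparison, per array (points, replicates 1 to 3 from left to right) with the group mean and SD (bars), for LPA+IFNt, LPA and Control; each panel has its own axis. MRPL18 and MRPS15 lie lowest under LPA+IFNt, MRPL32 and MRPS18A lie highest there, and MRPS34 under LPA+IFNt lies below all 3 LPA arrays.

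With the replicate number as a block 8 members passed between LPA+IFNt and LPA, beside 9.66% of all probe sets (6.28% lower, 3.38% higher). MRPL32 (0.00895), MRPL44 (0.0320) and MRPS18A (0.0345) were higher, and MRPS34 (0.00318), MRPL13 (0.00451), MRPL18 (0.0261), MRPS15 (0.0461) and MRPL24 (0.0488) were lower. MRPL44, a large-subunit protein with a fold related to ribonuclease III, stood at 10.48, 10.50 and 10.19 with LPA+IFNt, 9.96, 10.16 and 9.80 with LPA and 10.19 on each Control array. The LPA+IFNt arrays lay above the LPA arrays (0.41, SE 0.11, adjusted p 0.0741 without the block), and LPA+IFNt replicate 3 was level with Control. MRPL24, beside the polypeptide exit, stood at 9.37, 9.36 and 9.17 with LPA+IFNt, 9.67, 9.57 and 9.37 with LPA and 9.50, 9.58 and 9.47 in Control. Its LPA+IFNt arrays touched the lowest LPA array but stayed below it (-0.24, SE 0.09, adjusted p 0.191 without the block).

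Over the 3 groups together, the moderated F test called 2 members, MRPL32 (adjusted p 0.0289) and MRPS18A (0.0386), against 5.99% of all probe sets. With the replicate block it called 7, against 9.48%: MRPL13, MRPL18, MRPL23, MRPL32, MRPL36, MRPS15 and MRPS34, while MRPS18A missed the threshold (0.0642). Leaving out each array in turn left MRPL32 called without LPA replicate 2 (0.00685) or LPA+IFNt replicate 3 (0.0460), and gave 0.0576 to 0.105 without each of the other 7. MRPS18A stayed called without LPA replicate 1 (0.0205) or 3 (0.0477) and lay at 0.0517 to 0.132 otherwise.

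Genes of both subunits lay mostly below Control. Among the 45 large-subunit genes 37 lay below 0 with LPA+IFNt and 39 with LPA (medians -0.12 and -0.13), and among the 22 small-subunit genes 21 and 18 did so (medians -0.10 and -0.14). The 40 genes with a bacterial counterpart had medians of -0.12 with LPA+IFNt and -0.14 with LPA, and the 27 without had -0.06 and -0.09. The difference between these classes was not tested. Between LPA+IFNt and LPA every class had a median within 0.006 of 0.

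The stalk and its base, where translation factors bind, are formed by MRPL10, MRPL11 and MRPL12. MRPL11 stood at 11.25, 11.15 and 11.07 with LPA+IFNt, 11.22, 11.27 and 11.01 with LPA and 11.29, 11.24 and 11.26 in Control, with overlap of all groups (-0.11, SE 0.07, against Control with LPA+IFNt). MRPL12 with LPA+IFNt measured 9.62, 9.55 and 9.18, overlapping both other groups, and its difference was -0.16 (SE 0.20) against Control and 0.24 (SE 0.20) against LPA. MRPL12 also varied most within a group, with an SD of 0.24 over the LPA+IFNt arrays and 0.38 over the LPA arrays, where the median SD of a member was 0.091 and 0.113. MRPL10 measured 9.29, 9.32 and 9.29 with LPA+IFNt, 9.28, 9.29 and 9.19 with LPA and 9.37, 9.35 and 9.31 in Control. Its LPA arrays were below the Control arrays by -0.09 (adjusted p 0.511).

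MRPL58, a peptidyl-tRNA hydrolase held to rescue stalled ribosomes, stood at 11.09, 10.89 and 10.81 with LPA+IFNt, 11.06, 11.02 and 10.87 with LPA and 11.13, 11.11 and 11.17 in Control, so both treated groups lay below Control without overlap. The differences were -0.21 with LPA+IFNt and -0.16 with LPA, and neither passed the test. MRPS30, a large-subunit protein despite its symbol, gave 10.73, 10.76 and 10.45 with LPA+IFNt, 10.51, 10.70 and 10.41 with LPA and 10.73, 10.67 and 10.66 in Control. Its groups overlapped with LPA+IFNt (-0.04, SE 0.10). MRPS22, a small-subunit protein without a bacterial counterpart, measured 9.66, 9.43 and 9.35 with LPA+IFNt against 9.69, 9.73 and 9.80 in Control, with LPA at 9.69, 9.71 and 9.69. It lay below both other groups with LPA+IFNt (-0.26 against Control, adjusted p 0.104, and -0.22 against LPA, adjusted p 0.158).

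Of the 67 genes, 53 had 1 probe set, 11 had 2 and 3 had 3. Of the 17 further probe sets 13 lay above the floor, and of these 13, 11 had the sign of the brightest probe set for LPA+IFNt against Control, 9 for LPA+IFNt against LPA and 8 for LPA against Control. No gene had probe sets of opposite sign more than 0.5 log2 units apart. MRPL39, a large-subunit protein without a bacterial counterpart, was the case where the choice of probe set decided a call between LPA+IFNt and LPA. Its brightest probe set measured 9.92, 9.82 and 9.78 with LPA+IFNt and 10.01, 10.02 and 9.96 with LPA (-0.15, SE 0.05, adjusted p 0.120). The next brightest measured 9.32, 9.16 and 9.24 with LPA+IFNt and 9.52, 9.57 and 9.45 with LPA (-0.27, SE 0.05, adjusted p 0.0217). These 2 probe sets separated the groups in the same direction, but for LPA against Control they gave -0.01 and 0.19. The dimmest of the 3, with a mean of 3.49 and still above the floor, gave 0.04 (SE 0.08, adjusted p 0.756) for LPA+IFNt against LPA.

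Genes for other parts of mitochondrial translation were read beside the ribosomal proteins. Of 17 mitochondrial aminoacyl-tRNA synthetases, which charge the organelle's tRNAs, 4 fell with LPA+IFNt against Control, 3 fell against LPA, and 0 were called with LPA alone. Of all probe sets 2.86% were called lower with LPA+IFNt against Control and 3.98% against LPA, which also stand beside the lists that follow. RARS2, which charges tRNA with arginine, stood at 7.77, 7.68 and 7.84 with LPA+IFNt, 8.43, 8.14 and 8.36 with LPA and 8.38, 8.50 and 8.46 in Control. Its LPA+IFNt arrays were far below the other 6, at 0.624 times the Control level (-0.68 log2, SE 0.08, adjusted p 0.00248) and 0.685 times the LPA level (adjusted p 0.00695). IARS2, for isoleucine, measured 11.15, 11.11 and 11.11 with LPA+IFNt, 11.38, 11.36 and 11.33 with LPA and 11.41, 11.44 and 11.37 in Control, or 0.819 times Control (-0.29 log2, SE 0.03, adjusted p 0.00135). CARS2, for cysteine, stood at 0.650 times Control (-0.62, SE 0.11, adjusted p 0.0142), and VARS2, for valine, at 0.874 times Control (-0.19, SE 0.04, adjusted p 0.0390). The calls of RARS2 and IARS2 in both comparisons and of CARS2 against Control held when each array was left out in turn. The call of VARS2 held in 2 of 9 such fits besides the full one, without Control replicate 2 (0.0200) and LPA replicate 3 (0.0441), and ran up to 0.137 in the others. That of CARS2 against LPA (adjusted p 0.0327) held without Control replicate 1 (0.0253) or 3 (0.0446) and LPA replicate 3 (0.0449), and ran up to 0.107.

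Other groups held fewer calls. Of 23 assembly factors of the mitochondrial ribosome, MTERF3 fell with LPA+IFNt against Control (9.52, 9.37 and 9.19 with LPA+IFNt, 10.06, 9.92 and 9.84 in Control, -0.58, SE 0.12, adjusted p 0.0334). YBEY, an endoribonuclease needed for ribosome maturation, fell against LPA (9.13, 9.03 and 9.11 with LPA+IFNt, 9.53, 9.29 and 9.38 with LPA, -0.31, SE 0.07, adjusted p 0.0475). Of 11 translation factors, MTIF2, the initiation factor that brings the first tRNA, fell against Control (7.36, 7.31 and 7.23 with LPA+IFNt, 7.59, 7.61 and 7.68 in Control, -0.33, SE 0.06, adjusted p 0.0284). Each of these 3 calls was lost without some single arrays: the adjusted p ran from 0.0150 to 0.121 for MTERF3, from 0.0267 to 0.149 for YBEY and from 0.00719 to 0.0998 for MTIF2 when each array was left out. MTERF3 was lost without any Control array, LPA replicate 2, or LPA+IFNt replicate 2 or 3, MTIF2 without any Control or LPA+IFNt array, and YBEY was kept without Control replicate 1 or LPA replicate 2 alone.

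No member was called among 5 mitochondrial ribosomal proteins with other symbols, of which GADD45GIP1 (-0.37, SE 0.15, adjusted p 0.264) and AURKAIP1 (-0.26, SE 0.13, adjusted p 0.376) lay farthest below Control with LPA+IFNt. The same held for 7 genes of mitochondrial DNA and transcription (SSBP1 -0.27, adjusted p 0.0611, and POLG2 -0.29, adjusted p 0.161), for 7 regulators of nuclear genes for mitochondria (median 0.009 with LPA+IFNt and -0.009 with LPA against Control, MYC 0.10, adjusted p 0.427, and PPRC1 -0.19, adjusted p 0.503) and for 16 mitochondrial mass markers. With the replicate block the calls against Control with LPA+IFNt numbered 5 synthetases, 3 assembly factors, 2 translation factors, 2 ribosomal proteins with other symbols, 1 gene of DNA and transcription (SSBP1) and 4 mass markers (TOMM40, VDAC3, IMMT and TOMM22), all lower, beside 5.44% of all probe sets called lower. Against LPA they numbered 4 synthetases, 3 assembly factors and 1 mass marker, beside 6.28% of all probe sets called lower, and LPA against Control had 0 in every list. With spike-in centring RARS2 against Control was the sole call kept among the list genes called as deposited.

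**Figure D4:**
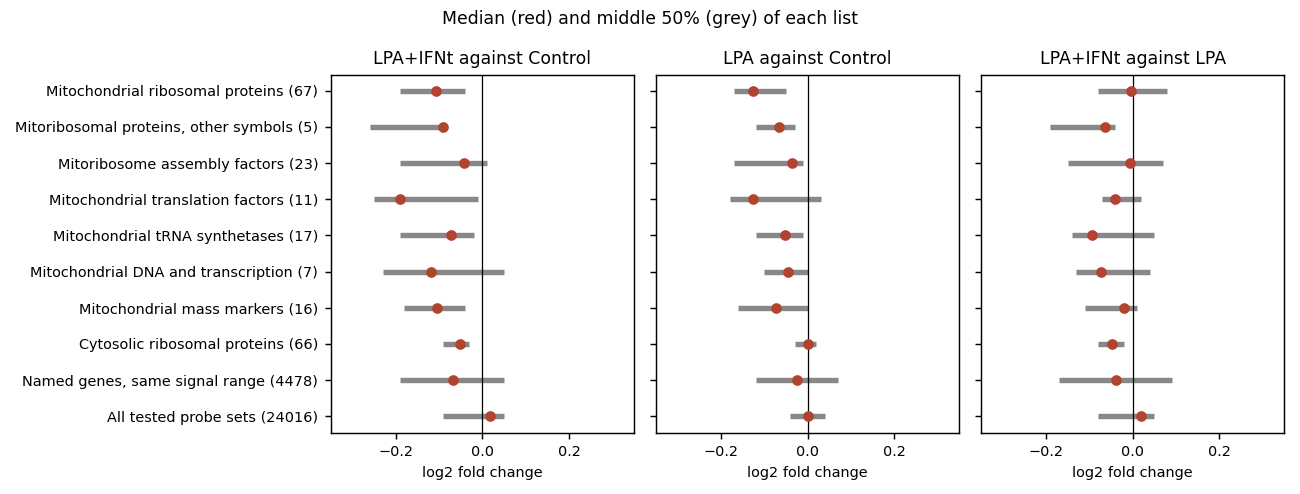
Median (red point) and middle 50% (grey line) of the log2 fold changes in each gene list (number of genes in brackets), in 3 panels, LPA+IFNt against Control on the left, LPA against Control in the middle, and LPA+IFNt against LPA on the right. The 7 mitochondrial lists plotted have medians below 0 on the left and in the middle, as do the named genes in the same signal range (-0.07 and -0.02). The regulators of nuclear genes for mitochondria (0.009 and -0.009) are not plotted. The cytosolic ribosomal protein genes lie at 0.002 in the middle panel and at -0.05 in the others.

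The 66 cytosolic ribosomal protein genes, whose products translate the nuclear messages, served as a second ribosome on the same arrays. Their median was -0.05 with LPA+IFNt against Control, 0.002 with LPA against Control and -0.05 with LPA+IFNt against LPA, with 60, 32 and 56 genes below 0. The called genes among them were 0, 0 and 1. The medians of the 67 mitochondrial ribosomal protein genes in the same order were -0.11, -0.13 and -0.005. The difference between the ribosomes was not tested. The mass markers, proteins of the mitochondrial membranes, matrix and import machinery, had medians of -0.10, -0.07 and -0.02.

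Some other measures of the same arrays differed between the groups, and others overlapped. The mean difference between 3′ and 5′ probe sets of the actin, GAPDH and EF1A controls, which reports how far labelled RNA extends from the 3′ end, was 0.10 to 0.17 with LPA+IFNt, 0.02 to 0.13 with LPA and 0.20 to 0.36 in Control. The 2 treated groups thus lay below Control without overlap. LPA replicate 3, the array with the lowest members (median deviation -0.202), had the lowest value, 0.02. LPA+IFNt replicate 3, with members nearly as low (-0.19), had the highest value of the treated arrays, 0.17. The mass markers averaged 11.34 to 11.46 with LPA+IFNt, 11.32 to 11.49 with LPA and 11.45 to 11.56 in Control. Of the 10 stromal markers, 3 were called lower with LPA+IFNt against Control (median -0.16) and 5 against LPA (median -0.37), and 0 were called higher. Of all probe sets 2.86% and 3.98% were called lower in these comparisons. The summed log2 level of the stromal markers was 116.0 to 116.4 with LPA+IFNt, 118.8 to 121.1 with LPA and 117.5 to 118.8 in Control. The 11 epithelial markers summed to 116.7 to 118.1, 116.6 to 117.7 and 116.3 to 117.9 in the same groups, and the 8 leukocyte markers to 30.3 to 32.0, 30.2 to 32.8 and 29.5 to 30.3. The part of these measures in the low values of the members was not tested. In such mixed cultures, fewer cells of a type and less RNA per cell cannot be told apart.

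**Figure D5:**
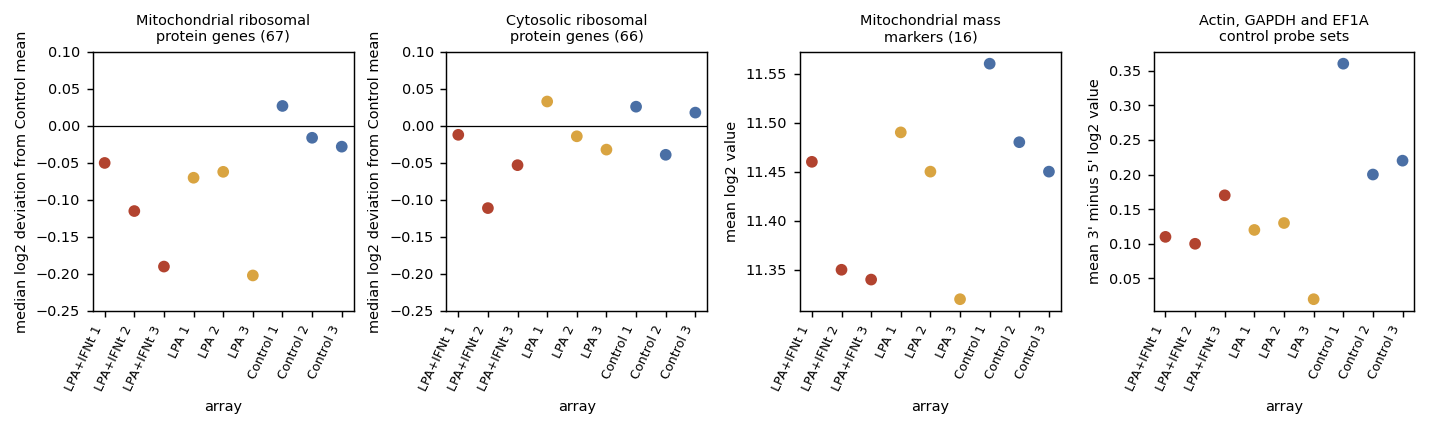
Per array, the median log2 deviation from the Control mean of the 67 mitochondrial and the 66 cytosolic ribosomal protein genes, the mean log2 value of the 16 mitochondrial mass markers and the mean 3′ minus 5′ log2 difference of the actin, GAPDH and EF1A controls; arrays are in the order LPA+IFNt, LPA, Control. In the first panel the 6 treated arrays lie between -0.202 and -0.05 and the 3 Control arrays between -0.028 and 0.027, and in the last panel the Control arrays lie highest.

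In the RefSeq table MRPL46 and MRPS11 are direct neighbours, as are MRPL35 with the mass marker IMMT and MRPL43 with TWNK. MRPL46 and MRPS11 differed from Control by -0.04 and -0.10 with LPA+IFNt and by -0.13 and -0.17 with LPA, and neither was called.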

How the data were processed

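RNA from 9 pools (Control, LPA and LPA+IFNt, 3 each) was labelled from 100 ng per sample and measured on 1 array each. The deposited values are log2 expression values per probe set made by the authors: the submitters' processing notes name RMA and Partek. Their versions are not stated in the notes, and base 2 was read from the range of the values. RMA subtracts background and equalises the distributions of the arrays, so a change shared by most transcripts would not be seen.

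Of 24128 probe sets, 112 Affymetrix controls were left out. The remaining 24016 were fitted with limma 3.58.1 in R 4.3.3 (lmFit, eBayes, two-sided), on all 9 arrays with no covariate, and p-values were adjusted by Benjamini-Hochberg over the 24016; called means an adjusted p under 0.05. Symbols were taken from the annotation of the array, in which 13292 probe sets had 1 symbol, 86 several and 10638 none. The number of arrays limits the precision, and p-values measure the spread between pools that share cows. Fits were tested on simulated data with independent noise on each array, so pairing by replicate number and shared cows were not part of that test. Figures were drawn with matplotlib 3.10.9.

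Arrays with the same replicate number in different groups deviated from their group means together (r 0.190 to 0.491, 9 of 9 pairs over 0.1), while 18 pairs with different numbers gave -0.468 to 0.141. The labels give no pairing, so the numbers were taken as pairing the samples from these correlations. Blocked values stand beside the results they change. Standard errors, intervals and adjusted p-values are from the fit without the block unless it is named. The block lowered the SE of some members, such as MRPS15 (0.05 in place of 0.11) and MRPL12 (0.11 in place of 0.20).

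The members and lists were chosen with earlier results of these data known. Per array values are given for called members, the 5 largest rises and falls of each comparison, the brightest and dimmest members and MRPL11, MRPL12, MRPS18A, MRPS18B and MRPS30; MRPS12 and MRPS18C were in that rule but carry no probe set of their own name here. MRPL10, MRPL36, MRPL39, MRPL46, MRPL58, MRPS11, MRPS22 and MRPS24 were added after their values were seen. For MRPL46, MRPS11 and MRPS24 no values per array are given. From each list up to 4 called genes, or the 2 with the smallest p, are named. Alternatives were a replicate block, a floor at the highest trp control, centring on the median or on spike-ins, averaged probe sets, an intensity trend, array weights, only the 2 groups compared, and each array left out; the list genes were put through them after the data were seen.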

Additional observations from a re-analysis of the deposited data

How the results depend on the processing

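The medians of the 67 genes were negative for LPA against Control in each setting run (without single replicates -0.147 to -0.068) and for LPA+IFNt against Control (without single replicates -0.151 to -0.072), where spike-in centring gave -0.009. For LPA+IFNt against LPA the median took either sign (without single replicates -0.043 to 0.034, array weights 0.003, spike-in centring 0.116). Spike-in centring shifted the median of all probe sets to 0.117 for LPA+IFNt against Control, to 0.140 for LPA+IFNt against LPA and to -0.019 for LPA against Control.

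Counts of called members changed more, and the counts over all probe sets in the same settings follow below. With LPA against Control (0) array weights gave 2 (MRPL36 and MRPS24), and 0 to 0 were called without single replicates. With LPA+IFNt against Control (2) the replicate block gave 7, the floor at the trp controls 4, median centring 4, spike-in centring 0, array weights 21 and the fit of only the 2 groups 1, and 0 to 2 were called without single replicates. With LPA+IFNt against LPA (3) these settings gave 8 (block), 5 (floor), 1 (spike-ins), 6 (weights) and 0 (only the 2 groups), and 1 to 4 without single replicates. The F test (2) gave 7 (block), 5 (median centring), 1 (spike-ins), 1 (intensity trend) and 24 (weights), and 0 to 1 without single replicates.

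Over all probe sets, LPA against Control (17 called) gave 11 (block), 37 (floor), 247 (spike-ins), 28 (averaged probe sets), 36 (intensity trend), 449 (weights) and 1 (only the 2 groups), and 0 to 169 without single replicates. LPA+IFNt against Control (1282) gave 2085 (block), 1437 of 15053 (floor), 1577 (median centring), 909 (spike-ins), 4757 (weights, 19.8% of all) and 1313 (only the 2 groups), and 791 to 1352 without single replicates. LPA+IFNt against LPA (1571) gave 2320 (block), 1719 of 15053 (floor), 1074 (spike-ins), 2186 (weights) and 1004 (only the 2 groups), and 954 to 2204 without single replicates. The F test (1439) gave 2276 (block), 1736 (median centring), 1261 (spike-ins), 1469 (intensity trend) and 4495 (weights), and 911 to 1997 without single replicates. Array weights estimate the quality of 9 arrays from the same data and give low-weighted arrays less say. The cause of the other shifts was not tested.

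The fit of only the 2 groups lost all 5 calls of single members: MRPS15 (adjusted p 0.0598) and MRPL18 (0.0719) against Control, and MRPL32 (0.0580), MRPS18A (0.0522) and MRPS34 (0.0929) against LPA. Spike-in centring lost MRPL18 (0.802), MRPS15 (0.425), MRPS18A (0.132) and MRPS34 (0.696) and kept MRPL32 (0.00274). Over the genes named singly and all settings, 760 results kept direction and side of the threshold, 31 newly passed it, 102 no longer passed, and 6 results without a call changed sign or size. With 3 arrays per group the median SE was 0.08, and no member with a change of the size of the family's median was called as deposited. With array weights some were, such as MRPS24 for LPA against Control (-0.13 without weights). The smallest change that could be called was not tested.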
